A study of Homo sapiens with 54 samples.

Results

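M1 is an altered form of the microRNA miR-107 (miR-107-mut1 in the study's design text), and its effect on the total RNA of H4 cells was read against a negative control. H4 is an established human cell line that the labels describe as glioneuronal in phenotype. The comparison holds the 3 lysate arrays titled for mutant M1 and the 3 lysate arrays titled for the negative control, 6 of the 54 arrays of the series. The members were taken by title, and no measured value entered the choice. Cells were transfected with M1 or with a negative control miRNA from Ambion and harvested at 48 h, and each condition had 3 biological replicates. The design text calls both molecules non-physiological, so neither is a microRNA that H4 cells make. The other 7 lysate groups used for reference had received M2 (miR-107-mut2), miR-107, miR-103, miR-16, miR-195, miR-320 or miR-15b, also with 3 arrays each. The labels call miR-320 a control miRNA and miR-15b an antisense control, and the design text writes miR-15b* for it. All groups share the host line and the transfection, and 1 cell line limits what they model. In such bulk samples, fewer cells of a type and less RNA per cell cannot be told apart.

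A microRNA guides an Argonaute protein to messages that pair with its seed, the bases near its 5′ end, and bound messages are usually repressed or degraded. The family of miR-15, miR-16, miR-103, miR-107 and miR-195 shares the letters AGCAGCA near that end, and its members are known to restrain cell cycle genes. An RNA with changed bases can lose the pairing of its parent and can gain pairing to other messages. The sequence of M1 was not used here. The mature RNAs it was read beside are shown because they place miR-107 and its relatives by seed. They are RefSeq sequences (GRCh38.p14), 5′ to 3′, with bases 2 to 8 in capitals.
hsa-miR-107: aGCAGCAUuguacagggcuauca
hsa-miR-103a-3p: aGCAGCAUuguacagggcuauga
hsa-miR-16-5p: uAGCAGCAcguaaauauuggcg
hsa-miR-195-5p: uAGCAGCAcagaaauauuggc
hsa-miR-15b-3p: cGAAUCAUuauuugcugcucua
The seed GCAGCAU is common to miR-107 and miR-103, the seed AGCAGCA to miR-16 and miR-195, and miR-15b-3p, the present name of miR-15b*, has neither. MIR107 lies on the minus strand at chr10:89592756-89592778.

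Values are deposited log2 array levels of one probe set per gene, so a level is not set against that of another gene. Replicates correlated at 0.977 to 0.988 among the M1 lysates and at 0.982 to 0.995 among the control lysates over the 11050 genes tested. Replicate 2 of the miR-103, miR-16 and miR-15b lysates stood apart, with a correlation to each of its own replicates under 0.95. None of these 3 arrays is in the comparison, but they enter the spread that all 27 lysate arrays share. Of markers that glial cells share with other cells, VIM was at 12.43 in M1 and 12.54 in control lysates and CD44 at 12.91 and 12.94. Among the astrocyte markers, GFAP was at 6.62 in M1 and 6.51 in control lysates. S100B (4.59 and 4.21) and AQP4 (4.52 and 4.60) did not pass the filter on low levels. In the same glial list GLUL was tested, at 10.11 in M1 and 9.98 in control lysates. SLC1A3, at 7.38 and 6.24, did not pass the filter. Of the tested markers of other cells, 0 of 2 haematopoietic and 0 of 6 epithelial markers passed the limma test in either direction (0 and 1 at an unadjusted p under 0.05), and PTPRC, which marks white blood cells, was at 3.57 and 3.59 and did not pass the filter. Tested members of these 2 lists included CD68 of macrophages (10.38 in M1 and 10.66 in control lysates) and the keratins KRT18 (10.38 and 10.12) and KRT8 (9.86 and 9.79).

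M1 changed the level of 969 of 11050 genes against control (adjusted p under 0.05 in limma with Benjamini-Hochberg adjustment, 8.77% of those tested). Of these, 368 rose (3.33%) and 601 fell (5.44%), and the median change of all genes was 0.00. In 965 of the 969 the 3 M1 arrays did not overlap the 3 control arrays (8.73% of genes tested), while 32.9% of all genes tested were free of overlap whatever their p. All 969 moved the same way in each of the 3 pairs of equal replicate number, against 57.6% of all genes tested. Groups without overlap must do so, and the calls were made on these same arrays, so this only describes the called genes. With the replicate number as a block 1591 genes were called (628 higher and 963 lower). Without the 3 lysate arrays that stood apart 2119 were called (844 higher and 1275 lower), without M1 replicate 3 the count was 576, without control replicate 2 it was 628 and without control replicate 3 it was 641. The log base of the deposited values is not stated, which limits every fold below.

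**Figure D1:**
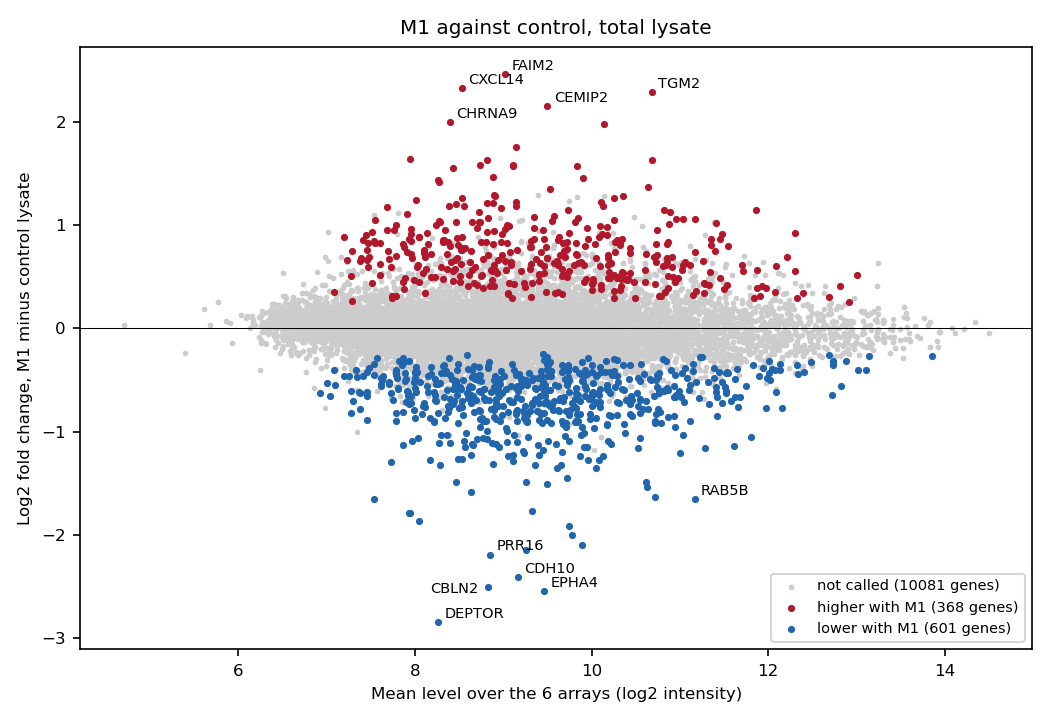
Change of each gene in M1 against control lysates (vertical axis, log2 fold change) by its mean level over the 6 arrays (horizontal axis, log2 intensity). Red points are the 368 genes that rose, blue points the 601 that fell and grey points the genes not called; the falls reach further, to -2.84 for DEPTOR, than the rises, to 2.46 for FAIM2.

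The largest rise was that of FAIM2, which blocks death signalling from the Fas receptor. It was at 10.36, 9.94 and 10.44 in M1 lysates, against 8.0, 7.57 and 7.79 in control lysates. The groups lay far apart, and the change was 2.46 ± 0.17 (log2 fold change ± SE, 5.51-fold, adjusted p = 2.8e-09 in limma). ELFN1, a synaptic membrane protein that binds glutamate receptors, read 10.96, 11.28 and 11.15 with M1, against 9.21, 9.02 and 9.23 with the control (1.98 ± 0.14, adjusted p = 5.3e-09). CHRNA9, a subunit of the nicotinic acetylcholine receptor, was the least even of the large rises, at 10.01, 8.42 and 9.77 with M1 and 8.41, 6.44 and 7.33 with the control. Its lowest M1 array was barely above its highest control array, and its change of 2.00 ± 0.63 passed narrowly (adjusted p = 0.049). The call of CHRNA9 was lost without M1 replicate 1 or 3 or control replicate 2 or 3 (adjusted p = 0.13 to 0.27). With the replicate number as a block the call held (adjusted p = 8.9e-08 in limma). KIF5C, a neuronal kinesin heavy chain, rose by 1.64 ± 0.26 (adjusted p = 2.3e-04), CLSTN2, a synaptic adhesion protein, by 1.57 ± 0.19 (adjusted p = 9.8e-06) and LYPD1, a modulator of nicotinic receptors, by 1.57 ± 0.17 (adjusted p = 2.1e-06).

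CXCL14, a chemokine, was at 9.34, 10.04 and 9.71 in M1 lysates, against 7.50, 7.07 and 7.52 in control lysates. All M1 arrays were above all control arrays, by 2.33 ± 0.15 on average (5.03-fold, adjusted p = 1.2e-09). TGM2, a transglutaminase that cross-links matrix proteins, read 11.78, 12 and 11.70 with M1, against 9.67, 9.29 and 9.65 with the control (2.29 ± 0.27, 4.88-fold, adjusted p = 8.5e-06). CEMIP2, a cell surface hyaluronidase, read 10.26, 11.11 and 10.37 with M1, against 8.52, 8.22 and 8.54 with the control (2.15 ± 0.31, adjusted p = 9.6e-05). FST, which encodes the activin-binding protein follistatin, rose by 1.76 ± 0.28 (adjusted p = 2.1e-04) and EDN3, a peptide of the endothelin family, by 1.55 ± 0.28 (adjusted p = 6.7e-04). The remaining large rises were the integrins ITGA6 and ITGA2, described with their family below, IL17RD, an inhibitor of fibroblast growth factor signalling (1.58 ± 0.25), and RNF152, a lysosomal ubiquitin ligase (1.58 ± 0.24).

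The largest fall was that of DEPTOR, an inhibitor of the growth-controlling mTOR kinase. It read 6.80, 6.54 and 7.18 in M1 lysates, against 9.41, 9.93 and 9.70 in control lysates (-2.84 ± 0.24, 7.15-fold lower, adjusted p = 9.9e-08). The highest M1 array was more than 2 log2 units under the lowest control array. EPHA4, an ephrin receptor that guides axons, read 8.06, 8.03 and 8.47 with M1, against 10.35, 10.94 and 10.89 with the control (-2.54 ± 0.25, adjusted p = 5.2e-07). PRR16, also called Largen and known to raise cell size, read 8.01, 7.41 and 7.85 with M1, against 9.69, 10.22 and 9.92 with the control (-2.19 ± 0.14, adjusted p = 1.2e-09). RAB5B, a GTPase of early endosomes, had the smallest error of the 15 largest falls. Its levels were 10.42, 10.43 and 10.19 with M1, against 11.90, 12.04 and 12.05 with the control (-1.65 ± 0.10, 3.14-fold lower, adjusted p = 1.2e-09).

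CBLN2, a secreted organiser of synapses, read 7.61, 7.50 and 7.63 with M1, against 9.61, 10.84 and 9.79 with the control (-2.50 ± 0.23, adjusted p = 3.4e-07). CDH10, a cadherin, read 7.94, 7.62 and 8.34 with M1, against 9.92, 10.61 and 10.59 with the control (-2.41 ± 0.32, adjusted p = 3.9e-05). The groups were well apart for both genes. PCDH10, a protocadherin, fell by 2.10, FLRT3, an adhesion protein of neurons, by 2.00, TSPAN7, a tetraspanin, by 1.91 and SEMA3D, a secreted axon guidance protein, by 1.77. The others were CAPN6, a calpain without protease activity (-2.15 ± 0.19), SPC24, a kinetochore protein (-1.86 ± 0.29), DIO2, which activates thyroid hormone (-1.79 ± 0.29), MYORG, a glycosidase (-1.79 ± 0.21), and SFRP4, a secreted Wnt antagonist (-1.65 ± 0.49, adjusted p = 0.036). The call of SFRP4 was lost when any of the 6 arrays but M1 replicate 1 was left out (adjusted p = 0.068 to 0.22). The highest of these was without M1 replicate 2, where the change was -1.17. The call was also lost with cyclic loess (adjusted p = 0.054) and held with the replicate block (adjusted p = 5.9e-05 in limma).

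**Figure D2:**
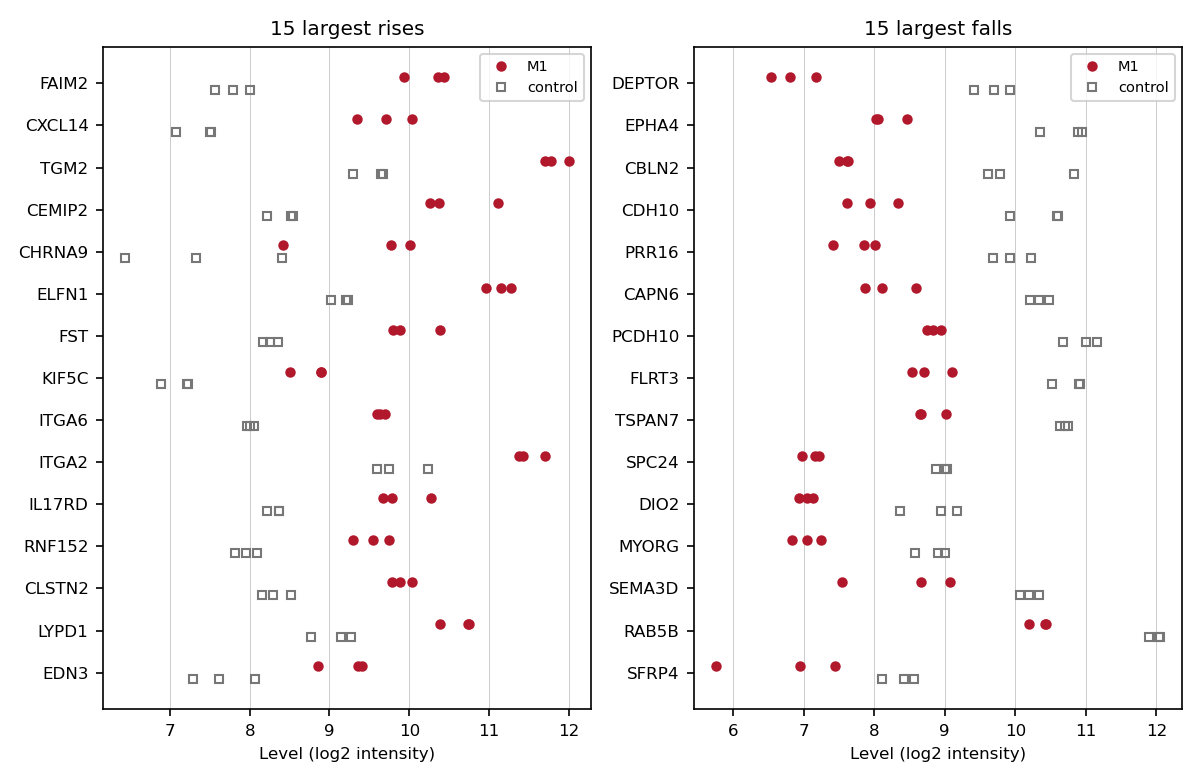
Levels (log2 intensity, horizontal axis) of the 15 largest rises, left, and the 15 largest falls, right, with 1 filled red point for each M1 array and 1 open grey square for each control array. The points of the 2 groups are apart in every gene by the rule of choice, widely for DEPTOR and RAB5B and narrowly for CHRNA9.

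The changed genes were then placed among the other 7 lysate groups. Of the 601 falls, 240 had all 3 M1 arrays below all 24 other lysate arrays, and 55 had all 3 control arrays above all others. Of the 368 rises, 39 had M1 above all others and 105 had the control below all others. Over all genes tested, M1 was lowest of all in 390 (3.53%) and highest in 83 (0.751%), while the control was lowest in 157 (1.42%) and highest in 97 (0.878%). The lysates of miR-107 were lowest in 20 genes and highest in 7, and those of M2 in 14 and 6. Without the 3 arrays that stood apart, M1 was lowest in 447 and highest in 146, miR-15b in 280 and 164, and the control in 266 and 252. These counts are not like for like. A group with a near relative among the others, as miR-107 has in miR-103 and miR-16 in miR-195, or one that holds an array that stood apart, less easily lies outside the range of the rest, and a group left with 2 arrays does so more easily.

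RAB5B showed this most plainly. The M1 arrays reached at most 10.43, and the 24 other lysate arrays spanned 11.60 to 12.28. Against the mean of the other 8 groups RAB5B was lower by a log2 change of -1.67 ± 0.08 (adjusted p = 3.8e-12). AP3D1, a subunit of the AP-3 complex that sorts proteins to lysosomes, read 10.23, 9.86 and 9.52 with M1, against 11.49, 11.33 and 11.28 with the control, and 11.18 to 11.66 over the 24 other arrays (-1.52 ± 0.11 against the other 8 groups, adjusted p = 8.6e-09). CHPF2, which helps to polymerise chondroitin, read 9.29, 9.47 and 8.77 with M1, against 10.30, 10.23 and 10.13 with the control and 10.13 to 11.47 over the 24. DEPTOR, DIO2, TSPAN7 and MYORG were likewise below every other lysate array in M1. For DEPTOR the margin was small, since the lowest of the other arrays, at 7.25, lay close to the highest M1 array, at 7.18.

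Among the rises, FAIM2, ELFN1, KIF5C and CLSTN2 were above every other lysate array in M1. FAIM2 reached at most 9.21 elsewhere, and the contrast with the other 8 groups was 2.05 ± 0.13 (adjusted p = 9.1e-10). CXCL14 and TGM2 did not share this pattern. CXCL14 averaged 9.70 ± 0.35 with M1, 9.84 ± 0.17 with M2, 10.65 ± 0.06 with miR-107 and 10.39 ± 0.20 with miR-103, while miR-320 and miR-15b (both 7.47) lay near the control at 7.36 ± 0.26 (SD, n = 3 each). TGM2 averaged 11.83 ± 0.15 with M1, 11.45 ± 0.40 with miR-107, 12.31 ± 0.57 with miR-16 and 9.54 ± 0.21 with the control. For TGM2, M1 did not differ past the threshold from miR-107 (0.38 ± 0.27, adjusted p = 0.49) or M2 (0.74 ± 0.27, adjusted p = 0.081). With the replicate block the difference from M2 passed (0.74 ± 0.22, adjusted p = 0.02) and that from miR-107 did not (0.38 ± 0.22, adjusted p = 0.28).

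Some of the largest changes depend on which control is used. With miR-320 and miR-15b in place of the negative control, CBLN2 changed sign to 0.33 (adjusted p = 0.38), CDH10 to 0.01 (adjusted p = 0.99) and SFRP4 to 0.20 (adjusted p = 0.84). CBLN2 averaged 7.58 ± 0.07 in M1 and 10.08 ± 0.66 in control lysates, and all 3 control arrays were above all 24 others. With that replacement, under which 9.98% of all genes were called and 534 of the 969 calls were shared, 21 of the 30 named genes kept their direction and their call, among them FAIM2 at 1.36 ± 0.15, CXCL14 at 2.23 ± 0.13, DEPTOR at -1.38 ± 0.21 and RAB5B at -1.52 ± 0.09. CHRNA9 (0.70), FST (0.72, adjusted p = 0.064), ITGA6 (0.36), ITGA2 (0.97), CAPN6 (-0.31) and FLRT3 (-0.48) kept their direction and lost the call.

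**Figure D3:**
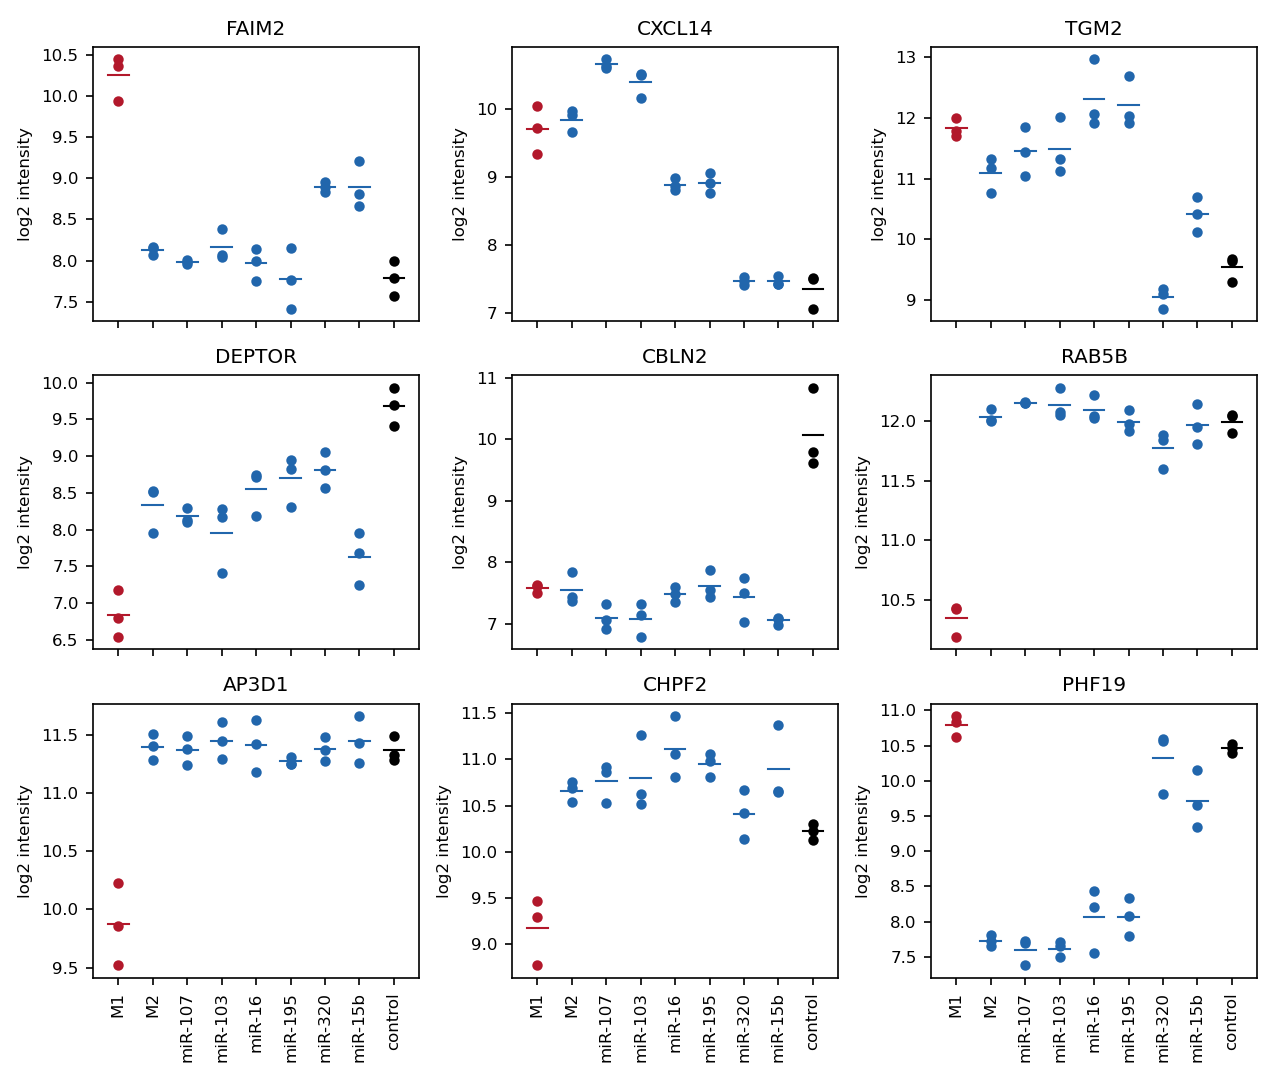
Levels (log2 intensity, vertical axes, which differ between panels and do not start at 0) of 9 genes in the 9 lysate groups, with 1 point per array and a line at the group mean. M1 (red, left) stands alone for FAIM2, RAB5B, AP3D1 and CHPF2, the control (black, right) stands alone for CBLN2, and PHF19 is high in M1, miR-320, miR-15b and control lysates and low in the other 5 groups.

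Gene lists describe how far these changes ran through known groups. Each count below is of members tested. Counts called against control are to be read against 3.33% of all genes higher and 5.44% lower, and each median against 0.00 for all genes. The other settings have larger shares. Of all 11050 genes 858 were higher and 1265 lower at an unadjusted p under 0.05 in limma. With the block 628 were higher and 963 lower, and without the 3 arrays that stood apart 844 and 1275. Integrins bind cells to the matrix, and of 14 integrin subunits 5 rose and 0 fell (median 0.09; 6 and 0 at an unadjusted p under 0.05). ITGA6, part of a laminin receptor, read 9.59, 9.69 and 9.63 with M1, against 8.0, 8.05 and 7.97 with the control (1.63 ± 0.43, adjusted p = 0.016). ITGA2, part of a collagen receptor, rose by 1.63 ± 0.41 (adjusted p = 0.013), ITGB3 by 0.99 ± 0.14, ITGA11 by 0.76 ± 0.14 and ITGB5 by 0.56 ± 0.12. The arrays of both groups were very even for ITGA6, and the SE is that of the spread shared over all lysates. With 1 of the 6 arrays left out at a time, ITGA6 missed the threshold without replicate 2 or 3 of either group (adjusted p = 0.051 to 0.056) and ITGA2 without M1 replicate 1 or control replicate 2 or 3 (adjusted p = 0.054 to 0.066). Of 34 matrix genes 4 rose (LOXL2 by 1.13, THBS1 by 0.90, BGN by 0.72 and SPARC by 0.30) and 1 fell (SERPINE2, -0.56), or 10 and 2 with the replicate block.

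Of 25 genes of TGF-beta and activin signalling, which drives matrix production in many cells, 5 rose and 0 fell (median 0.16; 8 and 0 with the block and likewise at an unadjusted p under 0.05). Besides FST these were INHBA, the activin A subunit (1.24 ± 0.31), the receptor TGFBR1 (1.08 ± 0.30), the co-receptor TGFBR3 (0.52 ± 0.16) and the inhibitor SMAD7 (0.49 ± 0.13). The members that rose thus include activators and inhibitors of the pathway. Of 19 genes that respond to the transcriptional co-activator YAP 4 rose and 0 fell (median 0.32; 7 and 0 without the 3 arrays that stood apart, 8 and 0 at an unadjusted p under 0.05). CCN2, a secreted matrix protein, read 9.94, 9.42 and 9.84 with M1, against 8.63, 8.41 and 8.60 with the control (1.19 ± 0.30, adjusted p = 0.012). CCN1, a relative of CCN2, rose by 1.18 ± 0.37 (adjusted p = 0.047), THBS1 by 0.90 ± 0.16 and CRIM1 by 0.71 ± 0.19. Against miR-107 the sign of CCN2 was the other way (-1.27 ± 0.30, adjusted p = 0.0043), and against miR-320 with miR-15b it was not called (0.37, adjusted p = 0.46). Of the 19 YAP-responsive genes 0 were higher and 6 lower in M1 than with miR-107, where 6.51% and 6.96% of all genes were. Against M2 1 was higher and 4 lower (6.06% and 6.68% of all genes). Against miR-320 with miR-15b 1 was higher and 0 lower, where 9.98% of all genes were called.

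YAP acts through TEAD proteins, which bind the letters GGAATG. The CCN2 promoter is shown because CCN2 leads this list (RefSeq, GRCh38.p14, minus strand, chr6:131951323-131951622, from 250 bases before the start to 50 after it), with each GGAATG in capitals.
CCN2 promoter: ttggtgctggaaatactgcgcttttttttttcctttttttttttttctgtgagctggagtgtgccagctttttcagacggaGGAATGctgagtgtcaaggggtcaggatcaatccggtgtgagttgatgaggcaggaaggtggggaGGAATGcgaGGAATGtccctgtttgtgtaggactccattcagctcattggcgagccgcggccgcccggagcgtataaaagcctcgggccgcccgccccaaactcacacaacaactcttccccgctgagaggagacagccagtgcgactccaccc
The 3 matches begin 169, 104 and 95 bases before the start. GGAATG, searched on both strands as GGAATG or CATTCC, occurred in 14% of 35116 promoter windows of this length, and 0.125% held at least 3. A match is a run of letters and not a measured binding site.

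Wnt signalling, which acts through beta-catenin, changed in both directions. Of 34 genes 6 rose and 2 fell (median 0.22; 9 and 2 with the block, 11 and 3 without the 3 arrays that stood apart). CTNNB1, beta-catenin itself, read 11.73, 11.78 and 11.83 with M1, against 11.03, 10.85 and 10.87 with the control (0.87 ± 0.13, adjusted p = 8.7e-05). FZD7, a receptor, rose by 0.99, the feedback inhibitors NKD1 by 0.95 and NKD2 by 0.45, the ligand WNT5A by 0.87 and the transcription factor LEF1 by 0.65. LRP5, a Wnt co-receptor, read 9.14, 9.20 and 8.85 with M1, against 10.31, 10.29 and 10.19 with the control (-1.20 ± 0.21, adjusted p = 4.6e-04). AXIN1, a scaffold that promotes beta-catenin breakdown, fell by 0.58. LRP5 and AXIN1 were below all 24 other lysate arrays in M1, which spanned 10.10 to 11.11 for LRP5 and 8.05 to 8.93 for AXIN1, while CTNNB1 was not called between M1 and miR-107 (0.10 ± 0.13, adjusted p = 0.76).

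The mTOR list had more falls than rises. Of 24 genes of the mTOR complexes and their regulators 6 fell and 1 rose (median -0.20; 6 and 3 with the block, 9 and 3 without the 3 arrays that stood apart). Besides DEPTOR, EIF4EBP2, a repressor of translation that mTOR inactivates, read 11.02, 11.40 and 10.71 with M1, against 12.04, 12.28 and 12.23 with the control (-1.14 ± 0.14, adjusted p = 9.8e-06). Its M1 arrays were below all 24 others, which spanned 11.81 to 12.77. RPTOR and MLST8, subunits of the complexes, fell by 0.60 and 0.43, and TSC2 and TSC1, which restrain mTOR together, by 0.55 and 0.26. PRR5L, which binds mTOR complex 2, rose by 0.72 ± 0.20. Members that promote mTOR activity and members that restrain it are both among the falls.

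Enzymes of the glycosaminoglycan chains, the sulphated sugars of the cell surface, changed in both directions. Of 32 genes 3 rose and 4 fell (median 0.06; 8 and 7 without the 3 arrays that stood apart). B3GALT6, which builds the linker that joins the chains to protein, read 8.23, 8.08 and 7.96 with M1, against 9.18, 9.22 and 9.27 with the control (-1.13 ± 0.17, adjusted p = 1.1e-04), and the 24 other arrays spanned 9.15 to 10.03. CHPF2 fell by 1.04, EXT1, which polymerises heparan sulphate, by 0.55 and NDST1, which begins its sulphation, by 0.40. The rises were CHST15 (1.15 ± 0.21) and UST (0.58 ± 0.13), both sulphotransferases of chondroitin or dermatan sulphate, and XYLT1 (0.98 ± 0.11), which starts the linker. These rises were not called against miR-320 with miR-15b (0.47, -0.02 and 0.07), whereas B3GALT6 (-1.29) and CHPF2 (-1.48) were.

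Ribosomal, sterol and antioxidant genes contributed falls. Of 40 cytosolic ribosomal protein genes 7 fell and 0 rose (median -0.20; 13 and 0 with the block, 16 and 0 at an unadjusted p under 0.05), and their probe sets can also read near-identical pseudogenes. RPS20 read 12.52, 12.59 and 12.53 with M1, against 13.05, 13.16 and 13.10 with the control (-0.56 ± 0.09, adjusted p = 2.3e-04), and RPL23, RPLP1, RPL14, RPS25, RPL12 and RPS27 fell by 0.27 to 0.43. Against miR-107 and against M2, 0 of the 40 passed the test in limma, although 5 were lower than with miR-107 and 3 lower and 1 higher than with M2 at an unadjusted p under 0.05. With the block 2 were lower than with miR-107 and 1 lower than with M2. Of all 11050 genes 1365 were lower than with miR-107 at that unadjusted threshold, and 1547 were lower and 1145 higher than with M2. With the block 1129 and 1141 were lower than with miR-107 and M2. Against miR-320 with miR-15b 7 of the 40 were lower and 0 higher (median -0.19), where 712 of all genes were lower. Of 21 sterol genes 3 fell and 0 rose (median -0.27; 6 and 0 without the 3 arrays that stood apart and also at an unadjusted p under 0.05): SREBF2, the regulator of cholesterol synthesis (-0.81 ± 0.12), and the enzymes DHCR7 (-0.66 ± 0.20) and LSS (-0.65 ± 0.19). Of 15 NRF2 targets 3 fell and 0 rose, among them HMOX1, which breaks down haem (-1.24 ± 0.20), the reductase AKR1C1 (-1.21 ± 0.18) and PGD of the pentose phosphate pathway (-1.05 ± 0.16). Of 29 lysosome genes 2 fell, the acid sphingomyelinase SMPD1 (-1.16 ± 0.21) and the channel MCOLN1 (-0.88 ± 0.17), and 1 rose, IDS (0.34 ± 0.09); 5 fell with the block.

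Of 25 interferon response genes 3 rose (median 0.26; 6 with the block), namely MX2 (1.09 ± 0.30), OAS3 (0.61 ± 0.10) and BST2 (0.32 ± 0.10). OAS3 was even across replicates, at 10.50, 10.50 and 10.48 with M1, against 9.92, 9.94 and 9.79 with the control. Of 19 p53 targets 3 rose (median 0.39, or 5 rises and 2 falls with the block), namely PMAIP1, a promoter of cell death (1.06 ± 0.33), PLK3 (0.82 ± 0.25) and ZMAT3 (0.64 ± 0.18). Against miR-320 with miR-15b 1 of the 19 was higher and 0 lower (median 0.08), where 9.98% of all genes were called. Against miR-107 1 was higher and 1 lower (median -0.05), where 6.51% and 6.96% of all genes were. Of 23 inflammatory mediators 3 rose, CXCL14, IL11 (0.85 ± 0.21) and CCL2 (0.52 ± 0.15), or 5 with the block. Of 22 immediate early genes 2 rose, DUSP5 (1.35 ± 0.19) and FOSL2 (0.60 ± 0.13), with 4 rises and 1 fall under the block, and against miR-320 with miR-15b 0 rose and 2 fell. Of 24 genes of the unfolded protein response 1 rose, VLDLR (1.26 ± 0.35), or 2 with the block.

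Of 26 death receptor and BCL2 family genes 3 rose (FAIM2, PMAIP1 and BCL2) and 2 fell (TMBIM4, -0.58, and BCL2L11, -0.41), or 5 and 2 with the block. Of 16 Eph receptors and ephrins EPHA2 rose (0.84 ± 0.26) and EPHA4 fell (1 and 2 with the block), and of 9 cadherins CDH11 rose (0.61 ± 0.16) and CDH10 and CDH7 (-1.26 ± 0.18) fell. Of 30 actin genes CAPZB rose (0.31) and RND3 fell (-1.03 ± 0.31), or 2 and 2 with the block. Of 20 hypoxia genes NDRG1 fell (-0.46 ± 0.10) and 0 rose, but 3 rose and 1 fell with the block, and 4 and 1 without the 3 arrays that stood apart. Of 35 oxidative phosphorylation genes 0 were called in limma (1 higher and 3 lower at an unadjusted p under 0.05; 1 and 1 were called with the block, and 1 and 3 without the 3 arrays). Of 11 neuronal markers MAP2 (0.68), ENO2 (0.58) and SNAP25 (0.45) rose and CBLN2 fell, and of 12 tested glial markers 0 were called, also at an unadjusted p under 0.05. Glial markers that the filter left untested included SLC1A3 (7.38 in M1 and 6.24 in control lysates) and SLC1A2 (5.08 and 5.31). The part of these markers in the other results was not tested. TGM2 was the only transglutaminase that passed the filter on low levels.

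The targets of the parent microRNA were read next. Of 18 genes known as targets of miR-103 and miR-107 0 rose and 0 fell against control in limma (median -0.01; 1 rose with the block, and 2 were higher and 1 lower at an unadjusted p under 0.05). CDK6, a kinase of G1, averaged 10.76 ± 0.16 in M1 lysates, 9.14 ± 0.06 in miR-107 lysates and 10.42 ± 0.30 in control lysates. BACE1, the beta-secretase, averaged 10.94 ± 0.15, 10.28 ± 0.05 and 11.12 ± 0.06 in the same order of groups. M1 was above miR-107 for both genes, by 1.63 ± 0.16 (adjusted p = 1.8e-07) and 0.66 ± 0.10 (adjusted p = 7.7e-05), and did not pass the test against control (adjusted p = 0.23 and 0.41). Of the 18 targets 7 were higher and 2 lower in M1 than with miR-107 (median 0.47), or 8 and 3 with the block. Of all genes tested 6.51% were higher and 6.96% lower in that contrast, or 988 and 1129 of 11050 with the block. Of 20 genes that miR-16, miR-15 or miR-195 is known to target, 3 rose and 1 fell against control (median 0.23): MAP2K1 (0.94 ± 0.10), FGF2 (0.89 ± 0.20) and BCL2 (0.35 ± 0.10) rose and WEE1 fell (-0.46 ± 0.14), or 6 and 2 with the block. Of 24 genes of Argonaute and microRNA processing AGO2 (-0.54 ± 0.14) and AGO1 (-0.28 ± 0.09) fell (1 rose and 2 fell with the block).

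**Figure D4:**
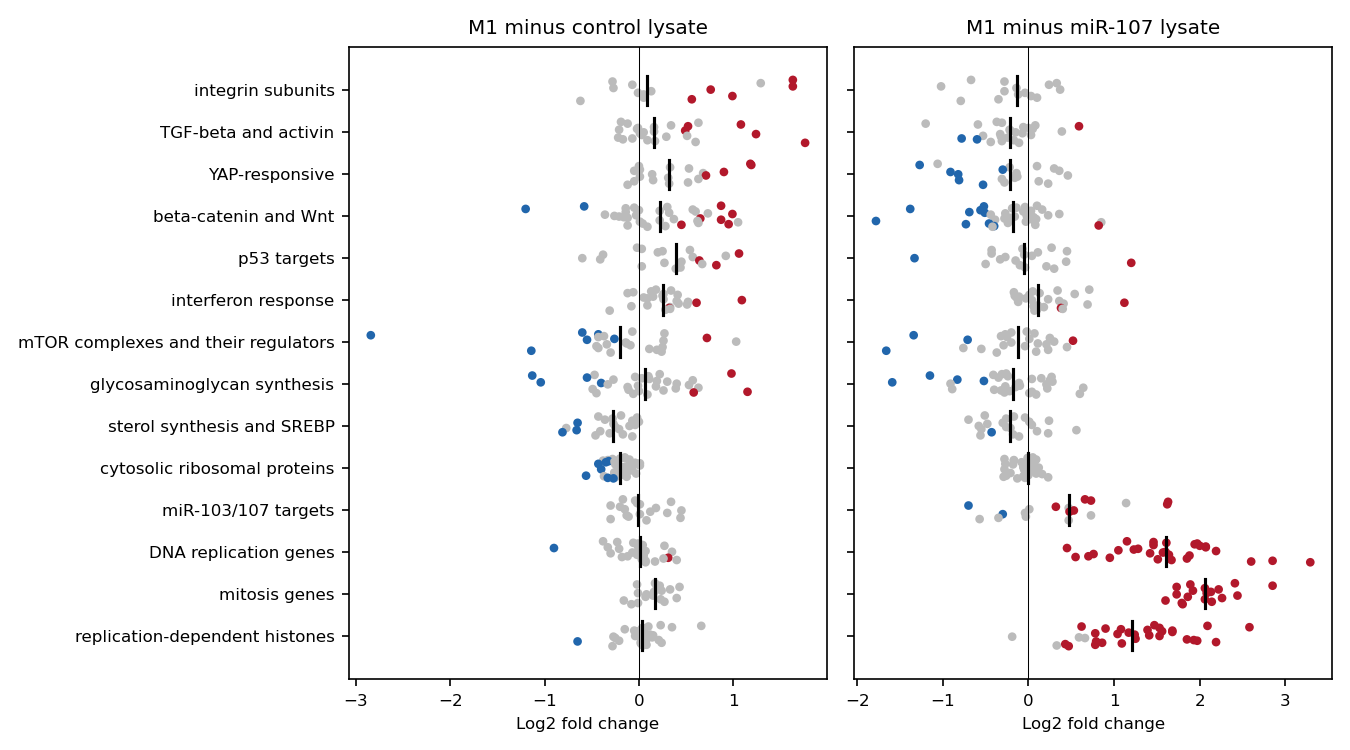
Log2 fold change (horizontal axes) of every tested member of 14 gene lists in M1 against control lysates, left, and in M1 against miR-107 lysates, right. Red points rose and blue points fell at an adjusted p under 0.05, grey points were not called, and the black bar is the list median, which is 2.06 for mitosis genes against miR-107 and 0.17 against control.

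Against miR-107 itself 1488 genes were called in M1 (13.5% of those tested), 719 higher (6.51%) and 769 lower (6.96%), and the count was 2706 without the 3 arrays that stood apart. Cell cycle genes were higher in M1. All 29 DNA replication genes tested were higher (median 1.60), all 18 mitosis genes (median 2.06) and 28 of 32 replication-dependent histones (median 1.21). Of 18 genes of the G1 to S step 9 were higher than with miR-107, whereas against control 1 fell (CDK4, -0.42 ± 0.12; 4 rose and 3 fell with the block). The replication, mitosis and histone lists had 1, 0 and 0 rises against control (1 each at an unadjusted p under 0.05), with medians of 0.01, 0.17 and 0.03. They had 1, 0 and 1 falls. RPA2 rose by 0.31, GINS3 and H3C10 fell by 0.90 and 0.65, and with the block 1 mitosis gene rose. Against miR-320 with miR-15b, 18 replication, 1 mitosis, 2 histone and 6 G1 to S genes were higher in M1 and 0 lower. The medians there were 0.63, 0.47, 0.29 and 0.45, and 9.98% of all genes tested were called. ASF1B, a histone chaperone, averaged 11.41 ± 0.18 in M1, 8.12 ± 0.11 in miR-107 and 11.34 ± 0.15 in control lysates, so M1 was above miR-107 by 3.29 ± 0.22 (adjusted p = 2.0e-09) and did not pass the test against the control (0.07, adjusted p = 0.94). PHF19, a Polycomb partner protein, was higher in M1 by 3.19 ± 0.22, TK1, the thymidine kinase of dividing cells, by 2.85 ± 0.20, PLK1, a mitotic kinase, by 2.85 ± 0.19 and KIF18B, a mitotic kinesin, by 2.68 ± 0.21. RAB27B, a GTPase of vesicle secretion, was lower in M1 by -3.74 ± 0.27 (adjusted p = 3.4e-09), at 6.47 ± 0.38 in M1, 10.22 ± 0.19 in miR-107 and 6.36 ± 0.07 in control lysates. C3AR1, a complement receptor (-2.45 ± 0.20), PTGS2, the inducible prostaglandin synthase (-2.38 ± 0.28), NRXN3, a synaptic neurexin (-2.26 ± 0.25), and GPRC5B, an orphan receptor (-2.09 ± 0.16), were also lower.

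M1 was also set against M2, the other altered miR-107. M1 differed from M2 in 1408 genes (12.7%), 670 higher (6.06%) and 738 lower (6.68%), and in 2872 without the 3 arrays that stood apart and 906 without M1 replicate 3. Against M2, 28 of 29 DNA replication genes, 18 of 18 mitosis genes and 29 of 32 histones were higher in M1 (medians 1.44, 1.78 and 1.18). PHF19 averaged 10.79 ± 0.15 in M1 and 7.73 ± 0.08 in M2 lysates (3.06 ± 0.22, adjusted p = 8.2e-09), beside 7.60 ± 0.19 in miR-107 lysates. ASF1B (2.67 ± 0.22), KIF18B (2.54 ± 0.21), SPAG5, a spindle protein (2.28 ± 0.20), and DLX2, a homeobox factor (2.25 ± 0.23), were higher in M1. RAB27B (-3.56 ± 0.27), PTGS2 (-2.43 ± 0.28), C3AR1 (-2.17 ± 0.20), the protease PRSS23 (-2.09 ± 0.22) and the lectin receptor CLEC1A (-1.99 ± 0.28) were lower. Of the 18 targets of miR-103 and miR-107 5 were higher and 1 lower in M1 than in M2 (median 0.32).

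Against the mean of all other 8 lysate groups 1807 genes were called (16.4%), 690 higher (6.24%) and 1117 lower (10.1%), and the count was 2930 without the 3 arrays that stood apart and 994 without M1 replicate 3. The largest rises among genes outside the range of all others were PHF19 (2.09 ± 0.17), FAIM2, TOP2A, a topoisomerase of dividing cells (1.79 ± 0.26), CCNA2, the cyclin of S phase and mitosis (1.73 ± 0.17), and HMGB2, a chromatin protein (1.66 ± 0.18). Of these 5, FAIM2 was also called against control, and with the replicate block CCNA2 (0.48 ± 0.16, adjusted p = 0.042) and HMGB2 (0.60 ± 0.17, adjusted p = 0.024) were as well. TOP2A, for example, averaged 9.93 ± 0.21 in M1 and 9.53 ± 0.29 in control lysates (0.40, adjusted p = 0.65), beside 7.67 ± 0.18 with miR-107 and 7.15 ± 0.37 with miR-16. The largest falls were RAB5B, DEPTOR (-1.63 ± 0.18), CHPF2 (-1.55 ± 0.16), AP3D1 and DIO2 (-1.49 ± 0.21), and all 5 were called against control as well.

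The Argonaute immunoprecipitates (IP, antibody 2A8) of the same conditions give a further reading of these genes. In M1 against control IP 82 genes were called (0.742%), 64 higher (0.579%) and 18 lower (0.163%). Of the 390 genes in which M1 was below every other lysate array, 15 were called higher in the M1 IP and 0 lower (51 and 12 at an unadjusted p under 0.05 in limma, beside 368 and 177 of all 11050 genes). The median IP change of the 390 was -0.01, beside 0.01 for all genes tested. The 390 were also brighter than all genes tested, with median control levels of 5.77 against 4.64 in the IP and 9.58 against 8.94 in the lysate. How far their level enters these counts was not tested. RAB11A, a GTPase of recycling endosomes, stood out. It read 10.01, 10.35 and 10.23 in M1 lysates, against 10.60, 10.99 and 10.90 in control lysates (-0.63 ± 0.15, adjusted p = 0.0094). In the IP it read 10.85, 11.89 and 11.27 with M1, against 6.56, 5.95 and 7.07 with the control (4.81 ± 0.33, adjusted p = 6.5e-09). The directions were opposite in the 2 fractions, and neither fraction had overlapping groups. FIZ1, a zinc finger protein, read 8.26, 10.32 and 9.61 in M1 IP, against 6.44, 6.5 and 6.65 in control IP (2.87 ± 0.33), with a lysate change of -0.52 ± 0.15. ZNF317, another zinc finger protein, read 5.46, 6.66 and 6.47 in M1 IP, against 3.5, 3.59 and 4.08 in control IP (2.48 ± 0.40), with a lysate change of -1.23 ± 0.21. MRPS2, a mitochondrial ribosomal protein, changed by 2.20 ± 0.38 in the IP and by -0.68 ± 0.14 in the lysate, and DNAAF5, which helps to assemble the motors of cilia, by 1.56 ± 0.33 and -1.24 ± 0.15. These 5 genes were chosen after their values were seen, and their low lysate levels are part of that choice.

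Other genes that were lowest in M1 lysates were not called in the IP. RAB5B read 7.09, 7.30 and 7.1 in M1 IP, against 8.34, 7.90 and 8.48 in control IP (-1.08 ± 0.55), and AP3D1 differed there by -0.12 ± 0.44. Of the 601 lysate falls 16 were called higher and 6 lower in the IP, and of the 368 rises 4 and 3. TGM2 was higher in the M1 IP as in the lysate (1.69 ± 0.39, adjusted p = 0.034), and CBLN2 was lower in both (-1.11 ± 0.26 in the IP, adjusted p = 0.039). The M1 effect in the IP minus that in the lysate passed the test in 183 genes (1.66%), RAB11A among them (5.45, adjusted p = 5.3e-14). IP levels were far below lysate levels in the deposited values, with medians of 4.64 in control IP and 8.94 in control lysates over the genes tested, and a difference in scale between the fractions does not cancel in these comparisons.

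**Figure D5:**
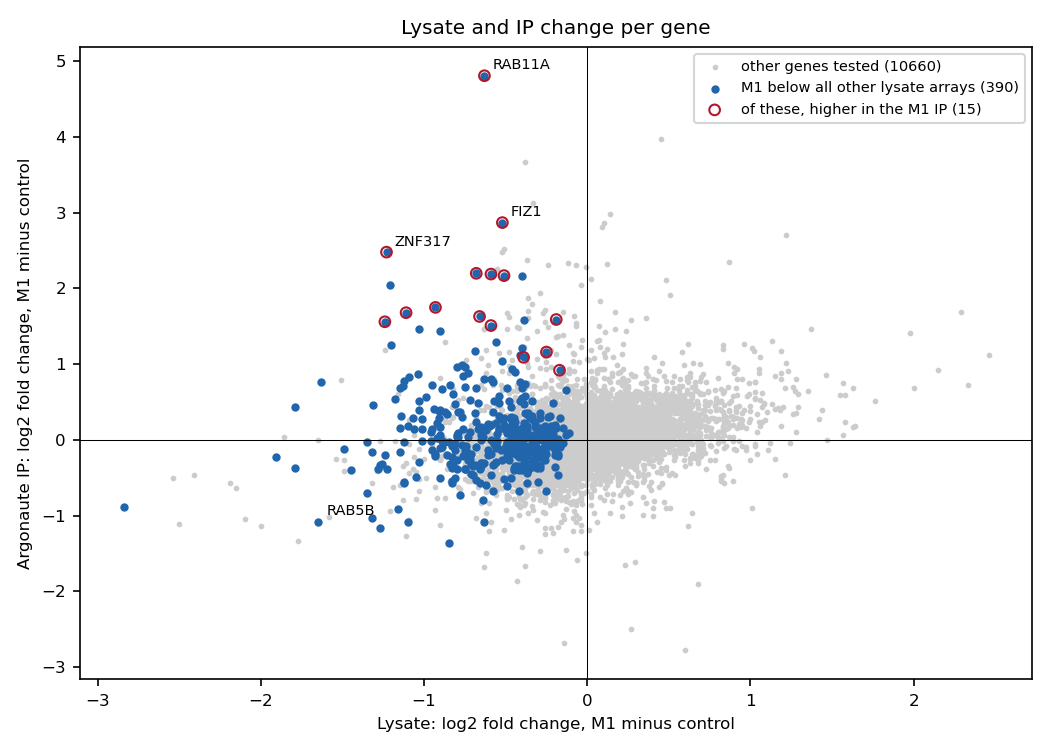
Log2 fold change of M1 against control in the lysate (horizontal axis) and in the Argonaute IP (vertical axis), 1 point per gene tested. Blue points are the 390 genes in which M1 was below all other lysate arrays, and red rings mark the 15 of these that were called higher in the M1 IP, with RAB11A highest at 4.81.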

How the data were processed

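RNA from total lysates and anti-Argonaute immunoprecipitates of transfected H4 cells was hybridised to Affymetrix Human Gene 1.0 ST arrays after Trizol LS extraction and labelling with the Ambion WT expression kit, per the labels' protocols. RMA and Affymetrix Expression Console 1.1 are named in the submitters' processing notes. No source states the log base; log2 was taken as the scale of the deposited values, as RMA returns it and their range fits it.

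The array table holds 33297 probe sets, of which 19460 carried 1 gene symbol, 1754 carried several and 12083 carried none. Those with 1 symbol were used (19429 were matched by gene ID and 31 kept their symbol), with the highest-mean probe set for 769 genes that had several, for a total of 18417 genes. Dropping the dimmest 40% (7367 genes with a mean over all arrays below 5.26) left 11050 for testing. Background probe values were not used here. Precision is limited by the number of arrays.

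The models in limma 3.58.1 (R 4.3.3) took all 27 lysate arrays in 9 groups, and separately the 27 IP arrays, with eBayes and Benjamini-Hochberg adjustment. Genes with an adjusted p under 0.05 count as called. The effect in the IP minus that in the lysate came from a fit of all 54 arrays. Data of 11050 genes were simulated with the means and spread of all 27 lysate arrays. The test found 23.9%, 88.1% and 98.5% of genes changed in M1 by 0.5, 1 and 2, and 4.1% of its calls were unchanged genes. The simulated arrays varied independently, without the deviation that M1 shared with same-numbered arrays, described next, so these rates may differ in the real data.

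M1 arrays deviated from their group mean together with same-numbered arrays of other groups, at correlations of 0.39 to 0.71 with control lysates. Over the 24 pairs of M1 with the other 8 groups the range was 0.12 to 0.75. Pairs of groups without M1 did not all share this. For replicates 1, 2 and 3, control with miR-107 gave 0.71, 0.41 and 0.46. Control with miR-15b gave -0.19, -0.41 and 0.42, and control with miR-103 gave -0.18, -0.37 and 0.35. The main fits took the group only, so their SEs and adjusted p do not use the replicate numbers that the titles give. The replicate block takes these numbers to pair the samples, and its values stand beside the results whose calls they change most. It was fitted over all lysate groups, including pairs whose same-numbered arrays did not deviate together. How far those pairs enter its counts was not tested. Other alternatives were the filter on dim genes, cyclic loess, trend and robust settings, array weights, fewer arrays, other controls and each array left out. Leaving out the 3 arrays that stood apart and the block in the 6 arrays alone were chosen after seeing the data.

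The genes and lists were chosen with earlier results of these data known. Genes named are the 15 largest rises and 15 largest falls among called genes whose M1 and control arrays did not overlap, members of the lists, and the 5 largest rises and falls of each other lysate contrast. No set test was run. Sequences come from RefSeq tables (GRCh38.p14). The sequences of M1 and M2 were not used here. Figures were drawn with matplotlib 3.10.9.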

Additional observations from a re-analysis of the deposited data

Results flagged for a closer look

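The effect of M1 against control was tested in the IP minus the lysate for the 5 largest rises and the 5 largest falls, and 6 of the 10 differed between the fractions at an adjusted p under 0.05 in limma over all genes (183 genes, 1.66%, passed). The 10 were chosen for a large lysate change, which enters the difference, so the choice itself favours a difference of the opposite sign and the values are a description. CXCL14 read 4.78, 4.34 and 4.66 in M1 IP, against 3.83, 3.93 and 3.85 in control IP, and its difference of effects was -1.61 ± 0.26 (adjusted p = 6.3e-05). For the falls the difference was 1.95 ± 0.38 for DEPTOR (adjusted p = 0.0014), 2.04 ± 0.40 for EPHA4 (adjusted p = 0.0012), 1.40 ± 0.35 for CBLN2 (adjusted p = 0.023), 1.94 ± 0.38 for CDH10 (adjusted p = 0.0015) and 1.62 ± 0.22 for PRR16 (adjusted p = 4.2e-06). In each of the 6 the IP change had the sign of the lysate change and was smaller. The IP arrays of CXCL14, PRR16 and CDH10 were all below 5.26, the level at which dim genes were dropped. PRR16 read 2.75, 2.85 and 2.80 in M1 IP, against 3.36, 3.51 and 3.24 in control IP, and CDH10 2.81, 2.96 and 2.73 in M1 IP, against 3.03, 3.52 and 3.37 in control IP. With IP minus lysate taken per culture and a replicate block, FAIM2 (-1.35, adjusted p = 0.03) and CHRNA9 (-1.32, adjusted p = 0.0015) also passed. How far the lower scale of the IP values enters these differences was not tested.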

How the results depend on the processing

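The count of 969 genes in M1 against control was 1591 with the replicate block, 4076 with array quality weights, 1555 in only the 6 arrays compared, 3131 in those 6 with the block, 2119 without the 3 arrays that stood apart, and 576 to 771 when 1 array was left out; the 969 calls were all among those of the block. The array weights ran from 0.0248 to 120 over the 27 lysates, so that count rests on few arrays. No filter, a filter of the lowest 60%, a filter on the lysate mean, cyclic loess, trend and robust settings, the mean of 3 controls, and miR-320 with miR-15b as control gave 880 to 1103. Of the 969 calls 864 were shared with no filter, 795 with the 60% filter, 961 with the lysate filter, 907 with cyclic loess, 926 with trend and robust settings, 686 with the mean of 3 controls and 534 with miR-320 and miR-15b. Against miR-107 (1488) the count was 2353 in 6 arrays, 2706 without the 3 arrays and 1009 to 1291 with 1 array left out; against M2 (1408) it was 2139, 2872 and 906 to 1203; against the other 8 groups (1807) it was 2930 without the 3 arrays and 994 to 1387 with 1 M1 array left out. Some of these settings change the arrays that enter the fit. Others keep the same 27 lysates and change the model, the weights, the filter, the normalisation or the control. Why the counts differ was not tested. Over the 30 largest changes and 18 settings, 494 of 527 values kept direction and call, 30 kept direction and lost the call, and 3 changed sign, all with miR-320 and miR-15b as control (CBLN2 0.33, CDH10 0.01 and SFRP4 0.20). Most of the calls lost were of CHRNA9, SFRP4, ITGA6 and ITGA2, and CDH10 lost its call with the mean of 3 controls (-0.80, adjusted p = 0.058). The block changed no call among these 30. None of the 30 had a further probe set. Signal over background was not used here, so the lowest levels have no detection limit.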
